A study of Homo sapiens with 5 samples.

Results

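Histone methylation writers and erasers are the enzymes that place methyl groups on histone lysines and those that take them off. They were chosen by gene symbol: every gene of the count table whose symbol is KMT, KDM, SETD, SMYD or PRDM followed by a number and at most 1 letter, together with EZH1, EZH2, EED, SUZ12, SUV39H1, SUV39H2, EHMT1, EHMT2, DOT1L, NSD1 and ASH1L. This gave 65 of the 26485 genes of the table, of which 56 passed the filter on low counts, as did 14187 genes in all. RNA-seq of poly-A RNA was performed on 5 libraries of RPE1, a widely used human cell line from retinal pigment epithelium, of wild-type genotype. The groups were 2 libraries of cells kept with the solvent DMSO, 2 of cells treated with 0.2 µM doxorubicin and 1 of cells treated with 0.34 µM doxorubicin, each for 18 h. Doxorubicin is an anthracycline that intercalates into DNA, poisons topoisomerase II and displaces histones. The treatment field of the labels gives these concentrations, which were used here, while the protocol text gives much higher ones. Following the study's methods, the 3 doxorubicin libraries formed 1 group that was compared with the 2 DMSO libraries. The comparison asks which of these genes changed their mRNA level with the drug.

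Methylated lysines of histone H3 and H4 mark different chromatin states. Methylation of H3K4 and H3K36 accompanies active promoters and transcribed gene bodies, while methylation of H3K27 by the Polycomb repressive complex PRC2, and of H3K9 by the SUV39H and EHMT enzymes, accompanies repressed chromatin. H4K20 monomethylation by SETD8, now named KMT5A, changes along the cell cycle. The erasers are the KDM1 amine oxidases and the much larger family of Jumonji oxygenases. The SET, MYND and PRDM families also hold proteins that methylate other proteins, or that have no enzyme activity shown and bind DNA.

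The total counts were between 23773061 and 36725345 per library, with the highest total at 0.34 µM. The DMSO libraries stood apart from each other, with a chi-square of 117 per degree of freedom over their counts, and the 0.2 µM libraries with 75.3. The 0.34 µM library lay closer to replicate 1 of 0.2 µM (9.01) than to replicate 2 (74.1). Values that 1 library moves by much are therefore given with and without it for the main genes. Of 12 markers of retinal pigment epithelium, 8 passed the filter, and 0 passed the edgeR test between the groups (4 at an unadjusted p under 0.05, all higher in doxorubicin, 2 in DESeq2). Of these markers, RPE65, RLBP1, TYR and TYRP1 did not pass the filter, with at most 0.31 CPM in any library. BEST1 and PMEL, named after their values were seen, passed it with DMSO means of only 0.77 and 0.23 CPM. Their log2 fold changes were 1.88 and 2.29 (edgeR adjusted p = 0.0823 and 0.0264), and PMEL passed in DESeq2 (adjusted p = 0.00868). Of the 8 tested markers, 5 were above 0 and 3 below. The transcription factors MITF and OTX2 had DMSO means of 42.9 and 26.4 CPM, and VIM, KRT8 and KRT18 were abundant. CPM here are TMM-normalized counts scaled to the library size. The summed level of 4 leukocyte markers was between 0.191 and 2.204 CPM and, through PTPRC, higher in each doxorubicin library, that of 3 endothelial markers between 0.38 and 3.53, and that of 3 neuronal markers between 1.54 and 3.56.

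For the 5 genes that passed the test described further down, the 100 bases upstream of a start site are shown, since 4 of them fell and 1 rose. They come from RefSeq on GRCh38.p14, run 5′ to 3′ on the strand of the gene and end at the base before the start site. Capitals mark the letters CCAAT, the box that the factor NF-Y binds, or ATTGG, the same box on the other strand.
EZH2, chr7:148884292-148884391, minus strand: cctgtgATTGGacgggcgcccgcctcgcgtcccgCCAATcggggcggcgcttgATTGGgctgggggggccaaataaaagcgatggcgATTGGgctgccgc
SUV39H1, chrX:48696634-48696733, plus strand: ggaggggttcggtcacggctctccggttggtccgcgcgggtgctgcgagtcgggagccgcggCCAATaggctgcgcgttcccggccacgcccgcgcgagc
PRDM8, chr4:80197403-80197502, plus strand: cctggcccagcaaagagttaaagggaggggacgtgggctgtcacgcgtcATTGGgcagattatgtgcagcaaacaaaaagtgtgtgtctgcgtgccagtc
SETD8, chr12:123384032-123384131, plus strand: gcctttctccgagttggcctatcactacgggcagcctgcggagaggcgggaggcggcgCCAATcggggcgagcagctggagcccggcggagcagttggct
KDM4B, chr19:4969013-4969112, plus strand: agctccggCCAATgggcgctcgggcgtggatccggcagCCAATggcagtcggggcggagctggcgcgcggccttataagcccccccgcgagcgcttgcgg
EZH2 held 4 such boxes, all within these 100 bases. KDM4B also held 4 in its whole window, of which 2 are shown, and the others held 1 each. EZH2, SUV39H1, PRDM8 and SETD8 each have 2 promoters in the RefSeq table, and the promoter not shown held no box in its window. A window covers 250 bases before to 50 after a start site. CCAAT on either strand was present in 34.6% of 35116 such windows. Counted by gene, it was in a promoter of 39.7% of 27305 genes and of 24 of the 52 tested writers and erasers with an entry (46.2%). All 5 genes that passed the test held it, KDM4B among them, which rose while the others fell. A gene with 2 windows has more places to hold it, and the shares by gene do not adjust for this. The 4 E2F-type 8-mers TTTCCCGC, TTTGGCGC, TTTCGCGC and TTTGCCGC, searched on both strands, were present in 3.31% of all windows. Counted by gene, one was in 3.99% of all genes and in 4 of the 52 tested writers and erasers (7.69%). Among the 5 genes, EZH2 alone held one, TTTGGCGC, from base 2 to base 9 after the start site of the promoter shown. EZH1, which did not pass the test, held TTTGCCGC on the other strand, from base -115 to base -108 relative to its start site. The CHR-type motifs TTTGAA and TTCGAA, of which the second reads the same on both strands, were present in 16.4% of all windows. By gene, they were in 19.5% of all genes and in 8 of the 52 tested writers and erasers (15.4%). SETD8 alone of the 5 held one, TTCGAA, from base 18 to base 23 after the start site. These matches describe letters in a window and not bound factors.

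After doxorubicin, 4 writers fell, EZH2, SUV39H1, PRDM8 and SETD8, and 1 eraser rose, KDM4B. Thus 5 of 56 tested genes passed an adjusted p-value of 0.01 in the quasi-likelihood test of edgeR (8.93%), where 4.02% of all genes tested passed it. The 4 that fell compare with 2.73% of all genes, and the 1 that rose with 1.29%. DESeq2 called 7 of the 56, or 12.5%, against 14.3% of all genes, and added SUV39H2 and SMYD4. By this tool the share was thus near that of all genes. The log2 fold change was below 0 in 38 of the 56 (67.9%), while it was below 0 in 48.9% of all genes. The median was -0.15, beside 0.013 over all genes. In 30 of the 56 (53.6%) the values of the 2 groups did not overlap, 23 lower and 7 higher, where 47.7% of all genes had no overlap. The 51 genes that did not pass the test had log2 fold changes between -1.38 and 0.61, and in 37 of the 56 the 95% interval lay within -1 and 1. In these bulk libraries, fewer cells of a type and less RNA per cell cannot be told apart.

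**Figure D1:**
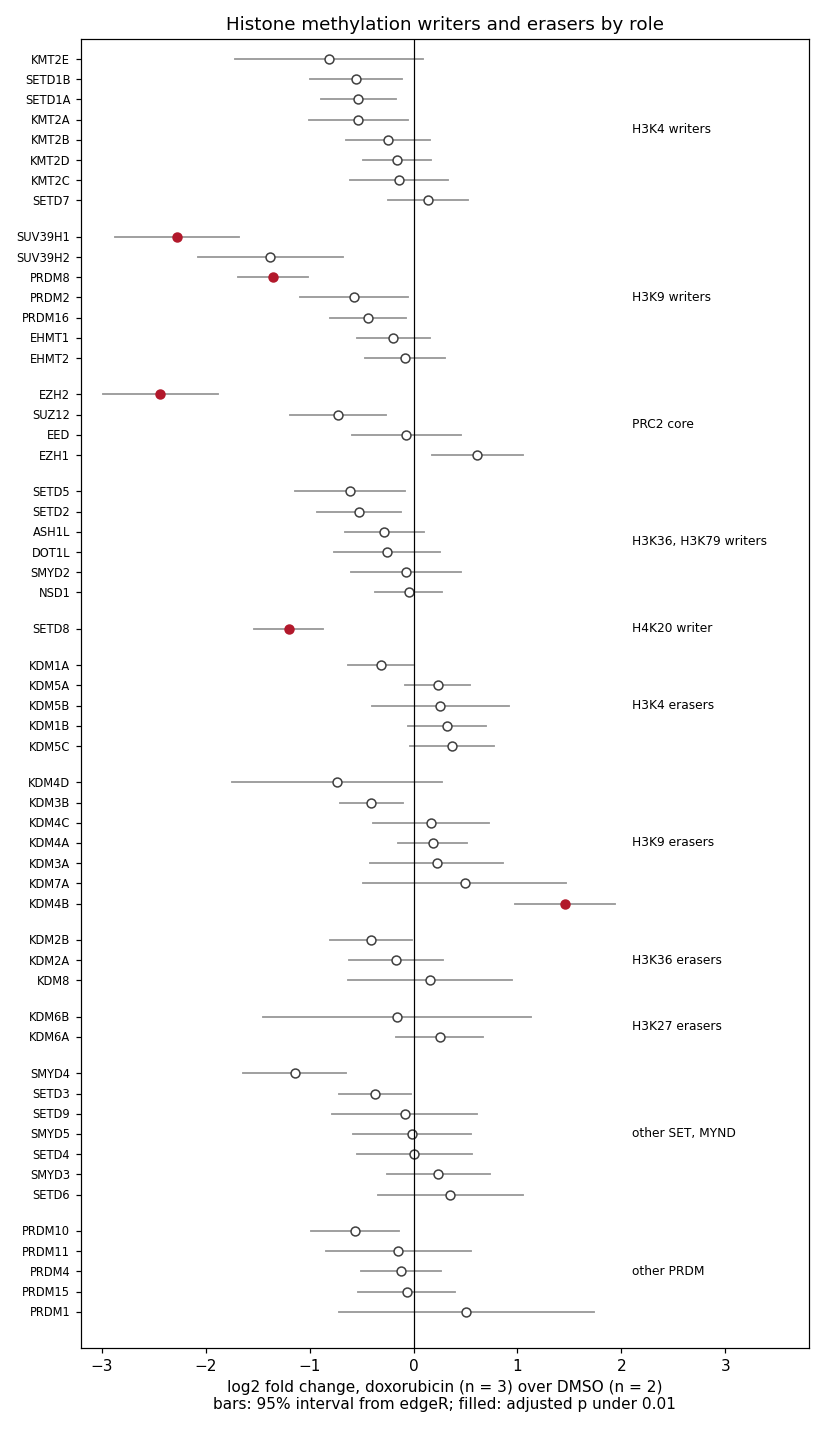
Log2 fold change of the tested writers and erasers (1 is not drawn), doxorubicin (n = 3) over DMSO (n = 2), grouped by the histone lysine they act on. Points are edgeR estimates, bars their 95% intervals and filled points have an adjusted p-value under 0.01. The 4 filled points on the left are EZH2, SUV39H1, PRDM8 and SETD8 and the 1 on the right is KDM4B.

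Writers and erasers are described apart. Of the 26 genes tested that are listed as writers, counting the core of PRC2 and KMT2E, 24 were below 0. Their median log2 fold change was -0.48. In 16 of them the doxorubicin libraries lay below both DMSO libraries, and in 1, EZH1, above, so that 65.4% had no overlap, beside the 47.7% of all genes. Of the 17 erasers tested, 11 were above 0, with a median of 0.18, and without overlap 6 were higher and 4 lower (58.8%). These counts cover the symbol rule only. Outside it, the Jumonji proteins PHF8, PHF2, C14orf169, JMJD1C and JMJD6, named after their values were seen, were below 0. Their log2 fold changes were -0.23, -0.47, -0.18, -0.47 and -0.50, while MINA, named likewise, had 0.036. None of them passed the edgeR test. The median of the writers remained below 0 with each library left out in turn, between -0.58 and -0.27. That of the erasers turned to -0.071 without DMSO replicate 2, with 10 of the 17 then below 0. The remaining 13 SET, MYND and PRDM proteins had a median of -0.068, and 0 of them passed the test in edgeR (3 at an unadjusted p under 0.05), whereas 1, SMYD4, passed in DESeq2. The difference between writers and erasers was not tested.

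Of the 4 core genes of PRC2, EZH2 passed the test and EZH1, SUZ12 and EED did not. EZH2, the catalytic subunit of dividing cells, had 52.9 and 61.1 CPM in the DMSO libraries, 9.63 and 13.6 in the 0.2 µM libraries and 8.49 at 0.34 µM. All doxorubicin libraries were far below both DMSO libraries, and the 0.34 µM library was the lowest. The DMSO mean was 57.0 ± 5.82 CPM (SD, n = 2) and the doxorubicin mean 10.6 ± 2.66 (SD, n = 3), or 0.185 of it. Its log2 fold change was -2.43 (standard error 0.23, 95% interval -2.99 to -1.88), and the Benjamini-Hochberg adjusted p of edgeR was 0.00186. Without DMSO replicate 1 or 2 the edgeR adjusted p rose to 0.0105 or 0.0169, and EZH2 passed with any doxorubicin library left out. The gene lies on chromosome 7 of GRCh38 from 148807383 to 148884291 and overlaps the small pseudogene RNU7-20P.

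EZH1, the paralogous catalytic subunit that is expressed in dividing and resting cells, had 29.3 and 23.3 CPM in DMSO, 35.6 and 40.8 at 0.2 µM and 44.3 at 0.34 µM. The doxorubicin libraries all lay above the DMSO libraries, with a log2 fold change of 0.61 (95% interval 0.18 to 1.05), but the edgeR adjusted p was 0.0723 and between 0.0273 and 0.290 over the alternatives. The reads of EZH2 per read of EZH1 were 1.81 and 2.63 in the DMSO libraries, and 0.271, 0.332 and 0.192 in the doxorubicin libraries. Thus EZH2 had more reads than EZH1 in both DMSO libraries and fewer in all 3 doxorubicin libraries. The same order was seen per kilobase of transcript, with a mean ratio of 3.87 in DMSO and 0.462 in doxorubicin. The ratio is a description and was not tested.

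SUZ12 and EED are the non-catalytic subunits that PRC2 needs for its activity. SUZ12 had 83.3 and 90.4 CPM in DMSO and 46.0, 65.3 and 46.1 in doxorubicin, in the order of the libraries above. The groups did not overlap, and the log2 fold change was -0.73, which did not pass (edgeR adjusted p = 0.054). EED had 12.8 and 19.0 CPM in DMSO and 14.5, 16.0 and 14.9 in doxorubicin, all within the range of the DMSO libraries. Its log2 fold change was -0.069 (95% interval -0.59 to 0.45) and turned to 0.23 without DMSO replicate 2. The reads of EZH2 per read of EED were 4.14 and 3.21 in DMSO and 0.664, 0.845 and 0.568 in doxorubicin. The summed level of the 4 core genes was 178 and 194 CPM in DMSO and 106, 136 and 114 in doxorubicin.

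Markers of proliferating cells moved in the same libraries. Of 10 such genes, 9 passed the edgeR test, all lower in doxorubicin, and MCM2 did not (log2 fold change -2.27, edgeR adjusted p = 0.0108). DESeq2 called all 10, and their median log2 fold change in edgeR was -2.94. With 1 library left out, 4 to 8 passed in edgeR, 4 of them without DMSO replicate 2 and 8 without DMSO replicate 1. Their summed level was 2998 and 3116 CPM in the DMSO libraries and 270, 335 and 214 in the doxorubicin libraries, in the same order as above. The highest of the doxorubicin values belongs to replicate 2 of 0.2 µM. Among the treated libraries, that one also had the highest CPM of EZH2, SUV39H1, SUV39H2 and SUZ12. The treated libraries of PRDM8 lay between 24.5 and 27.3 CPM and those of SETD8 between 31.9 and 32.9. Values this close give no order of the libraries for these genes, and the order was not tested for any gene. The part of this shift in the falls of the writers was not tested.

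**Figure D2:**
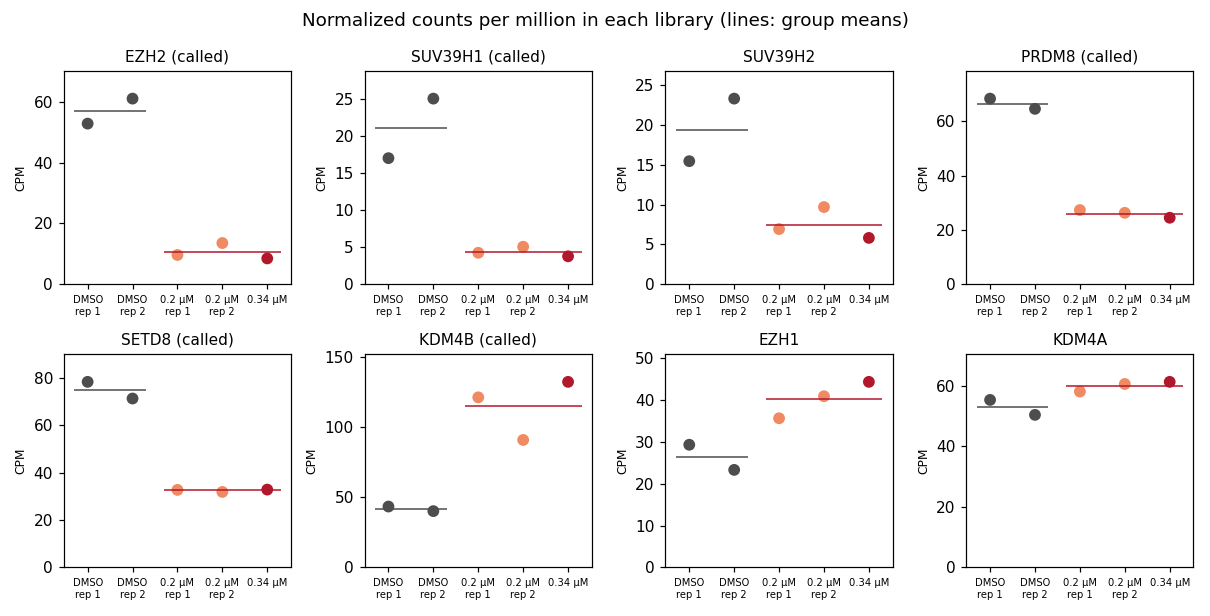
TMM-normalized CPM (linear axis from 0) of 8 writers and erasers in each of the 5 libraries, with lines at the means of the 2 DMSO and the 3 doxorubicin libraries. EZH2, SUV39H1, SUV39H2, PRDM8 and SETD8 are lower in all doxorubicin libraries, KDM4B and EZH1 are higher, and KDM4A is only slightly above its DMSO values.

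Under the symbol rule, 7 writers of H3K9 methylation were tested, all with log2 fold changes below 0 and a median of -0.57. Of these, 2 passed the test. Outside the rule, the H3K9 methyltransferases SETDB1 and SETDB2, named after their values were seen, were above 0, at 0.14 and 0.042. Neither passed the edgeR test. SUV39H1, which trimethylates H3K9 in pericentromeric heterochromatin, had 17.1 and 25.1 CPM in DMSO, 4.25 and 5.07 at 0.2 µM and 3.77 at 0.34 µM. Every doxorubicin library was below both DMSO libraries, and the DMSO libraries lay further apart than the 3 treated ones. The log2 fold change was -2.27 (standard error 0.25, edgeR adjusted p = 0.00321), a fall to 0.207 of the DMSO level. The adjusted p in edgeR was 0.0191 without DMSO replicate 2, 0.0161 and 0.0131 without replicate 1 or 2 of 0.2 µM and 0.0162 without the 0.34 µM library. Only without DMSO replicate 1 was it under the threshold (0.00873). SUV39H1 lies on chromosome X from 48695554 to 48709016 and overlaps no other RefSeq gene.

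SUV39H2, its paralog, had 15.4 and 23.3 CPM in DMSO, 6.92 and 9.69 at 0.2 µM and 5.81 at 0.34 µM. The groups did not overlap, and the log2 fold change was -1.38 (standard error 0.29, edgeR adjusted p = 0.027), which did not pass. DESeq2 gave an adjusted p of 0.000278, and over the alternatives it was between 0.000278 and 0.110. The gene overlaps DCLRE1C on chromosome 10, and without a stated strand setting its counts may include reads of that gene. The 2 paralogs had nearly equal reads in DMSO, with SUV39H1 over SUV39H2 at 1.10 and 1.08. In doxorubicin this ratio was 0.615, 0.524 and 0.649, so the reads of SUV39H1 were the fewer in each treated library.

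PRDM8, a PRDM protein with reported H3K9 methyltransferase activity, had 68.3 and 64.5 CPM in DMSO, 27.3 and 26.3 at 0.2 µM and 24.5 at 0.34 µM. The libraries of each group lay close together, and the groups were far apart. Its log2 fold change was -1.35 (standard error 0.14, edgeR adjusted p = 0.00272), a fall to 0.392 of the DMSO level. Whichever library was left out, the log2 fold change stayed between -1.41 and -1.31, but the edgeR adjusted p was 0.0112 and 0.0141 without DMSO replicate 1 or 2. It was 0.0163 and 0.0122 without replicate 1 or 2 of 0.2 µM and 0.0217 without the 0.34 µM library. PRDM8 lies on chromosome 4 from 80185270 to 80204329 and overlaps PRDM8-AS1. EHMT1 and EHMT2, which form the main H3K9 mono- and dimethyltransferase, had log2 fold changes of -0.20 (95% interval -0.55 to 0.15) and -0.081 (95% interval -0.46 to 0.30). That of EHMT2 turned to 0.080 without DMSO replicate 2. Their CPM were 66.2 and 59.8 in DMSO and 56.8, 50.0 and 58.2 in doxorubicin for EHMT1, and 66.6 and 84.1 against 74.0, 65.6 and 74.0 for EHMT2. For both enzymes the interval leaves out a 2-fold change in either direction.

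SETD8, the sole H4K20 monomethyltransferase and an enzyme whose protein is degraded during S phase, is listed in the table under this older symbol. It had 78.4 and 71.3 CPM in DMSO, 32.8 and 31.9 at 0.2 µM and 32.9 at 0.34 µM. The 3 doxorubicin libraries were almost equal and all below the DMSO libraries. The log2 fold change was -1.20 (standard error 0.14, edgeR adjusted p = 0.00353), a fall to 0.434 of the DMSO level. The call was lost with any library left out, with edgeR adjusted p-values of 0.0128 and 0.0141 without DMSO replicate 1 or 2. They were 0.0238 and 0.0147 without replicate 1 or 2 of 0.2 µM and 0.0270 without the 0.34 µM library, while the log2 fold change stayed between -1.29 and -1.14. SETD8 lies on chromosome 12 from 123384132 to 123409353 and overlaps RILPL2.

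The 8 tested genes listed as writers of H3K4 methylation had a median log2 fold change of -0.39, 7 of them below 0. In edgeR or DESeq2, 0 passed the test (3 at an unadjusted p under 0.05 in edgeR). KMT2A, the MLL1 enzyme, had 131 and 99.3 CPM in DMSO and 86.3, 64.6 and 87.7 in doxorubicin. Its log2 fold change was -0.53 (edgeR adjusted p = 0.126), without overlap of the groups, and -0.33 without DMSO replicate 1. SETD1A, the catalytic subunit of a SET1 complex, had 95.4 and 77.0 CPM in DMSO and 56.9, 61.9 and 60.3 in doxorubicin, with a log2 fold change of -0.53 (edgeR adjusted p = 0.063). KMT2D, which methylates enhancers, was closer to its DMSO level at -0.16 (95% interval -0.49 to 0.17). SETD7, a monomethyltransferase of H3K4 and of many non-histone proteins, was the only one above 0, at 0.14 (95% interval -0.25 to 0.53). KMT2E, named after its values were seen, had the lowest estimate of this list at -0.81, but its DMSO libraries had 275 and 101 CPM. Its place among the writers rests on its family name. The doxorubicin libraries had 117, 92.6 and 112 CPM, and without DMSO replicate 1 the log2 fold change was 0.074.

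Among the writers of H3K36 and H3K79 methylation, all 6 tested genes were below 0, with a median log2 fold change of -0.27, and 0 passed the test in edgeR or DESeq2 (2 at an unadjusted p under 0.05 in edgeR). SETD2, the enzyme of H3K36 trimethylation in transcribed genes, had 147 and 108 CPM in DMSO and 87.2, 93.6 and 86.5 in doxorubicin. The groups did not overlap, and its log2 fold change was -0.52 (edgeR adjusted p = 0.0894). Without DMSO replicate 1 it was -0.29. NSD1 and ASH1L, which dimethylate H3K36, had log2 fold changes of -0.047 (95% interval -0.37 to 0.28) and -0.28 (95% interval -0.66 to 0.099). That of ASH1L was -0.11 or -0.46 without DMSO replicate 1 or 2. DOT1L, the H3K79 methyltransferase, had one of -0.25 (95% interval -0.77 to 0.26), which was -0.081 without replicate 2 of 0.2 µM. SMYD2, which methylates H3K36 and also p53, had 18.8 and 28.4 CPM in DMSO and 22.2, 25.1 and 20.3 in doxorubicin, all within the DMSO range. Without DMSO replicate 2 the log2 fold change of -0.070 turned to 0.24.

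KDM4B, a demethylase of trimethylated H3K9 and H3K36, was the only eraser that passed the test. It had 43.4 and 40.1 CPM in DMSO, 121 and 90.8 at 0.2 µM and 132 at 0.34 µM. All doxorubicin libraries were more than 2-fold above both DMSO libraries, with replicate 2 of 0.2 µM the lowest of them. The DMSO mean was 41.7 ± 2.31 CPM (SD, n = 2) and the doxorubicin mean 115 ± 21.4 (SD, n = 3), a ratio of 2.75. The log2 fold change was 1.46 (standard error 0.20, edgeR adjusted p = 0.00676). In edgeR the adjusted p was 0.0343 and 0.0401 without DMSO replicate 1 or 2, 0.0267 without replicate 1 of 0.2 µM and 0.0266 without the 0.34 µM library. It was 0.00882 without replicate 2 of 0.2 µM, and the log2 fold change stayed between 1.35 and 1.60. KDM4B lies on chromosome 19 from 4969113 to 5153598 and overlaps no other RefSeq gene.

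The paralogs of KDM4B did not pass the test. KDM4A, with the same substrates, had 55.4 and 50.4 CPM in DMSO and 58.2, 60.7 and 61.4 in doxorubicin, a log2 fold change of 0.18 (95% interval -0.15 to 0.51). The reads of KDM4B per read of KDM4A were 0.783 and 0.795 in DMSO and 2.08, 1.496 and 2.153 in doxorubicin. KDM4B thus had fewer reads than KDM4A in both DMSO libraries and more in each doxorubicin library. KDM4C had a log2 fold change of 0.17 (95% interval -0.39 to 0.73), which turned to -0.12 without DMSO replicate 2. KDM4D, with about 1 CPM, had one of -0.74 (95% interval -1.75 to 0.27). Both were named after their values were seen.

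The other erasers showed smaller differences or wide spread. KDM1A, the amine oxidase LSD1 that removes H3K4 mono- and dimethylation, had 138 and 152 CPM in DMSO and 117, 117 and 115 in doxorubicin. Its groups did not overlap, and its log2 fold change was -0.32 (95% interval -0.63 to -0.0036, edgeR adjusted p = 0.158). The H3K4 trimethyl demethylases KDM5A and KDM5B had log2 fold changes of 0.23 (95% interval -0.080 to 0.55) and 0.26 (95% interval -0.40 to 0.92), and that of KDM5B turned to -0.091 without DMSO replicate 2. KDM3A, which acts on H3K9 mono- and dimethylation, had one of 0.22 that turned to -0.071 without the same library. KDM2B, the CpG island reader of a variant Polycomb complex, had one of -0.41 (edgeR adjusted p = 0.150).

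The H3K27 demethylases counter PRC2. KDM6A, or UTX, had 29.8 and 22.6 CPM in DMSO and 31.0, 31.6 and 31.1 in doxorubicin, a log2 fold change of 0.25 (95% interval -0.17 to 0.67), which was 0.46 or 0.051 without DMSO replicate 1 or 2. KDM6B, or JMJD3, an enzyme induced by many stimuli, had 78.8 and 22.01 CPM in DMSO, 51.9 and 26.7 at 0.2 µM and 57.0 at 0.34 µM. Its DMSO libraries enclose all doxorubicin libraries, so that a log2 fold change of -0.16 has an interval from -1.45 to 1.13. Without DMSO replicate 1 it was 1.04. KDM7A, which demethylates H3K9 and H3K27, had 5.65 and 2.35 CPM in DMSO and 6.15, 4.41 and 6.31 in doxorubicin. Its log2 fold change of 0.49 turned to -0.020 without DMSO replicate 2.

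The other PRDM, SMYD and SETD proteins held 0 genes past the edgeR threshold. SMYD4, named after its values were seen, had 12.4 and 13.6 CPM in DMSO and 6.15, 5.11 and 6.37 in doxorubicin. The groups did not overlap, and its log2 fold change was -1.15, for which the adjusted p was 0.0165 in edgeR and 5.22e-05 in DESeq2. With the replicate number as a block, in a fit of the DMSO and 0.2 µM libraries only, it was 0.00883 in edgeR. SMYD3, which methylates signalling proteins and histones, had one of 0.24 (95% interval -0.26 to 0.73). PRDM1, the repressor BLIMP1 of plasma cell differentiation, had 2.52 and 0.744 CPM in DMSO and 2.36, 2.12 and 2.48 in doxorubicin. Its log2 fold change was 0.51 and turned to -0.13 without DMSO replicate 2.

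The filter on low counts removed 9 genes, KDM4E, KDM5D, SMYD1, PRDM6, PRDM7, PRDM9, PRDM12, PRDM13 and PRDM14. Several of these are known from germ cells, muscle or neurons, such as PRDM9, which marks recombination sites in meiosis, and SMYD1 of heart and skeletal muscle. The highest count of any of them was 11 in a library. A gene with 0 counts in a library may have a level of up to 0.0826 to 0.125 CPM, from 3 counts, depending on the library. PRDM7 and PRDM9 are nearly identical copies whose reads cannot always be told apart.

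The partners of these enzymes, lists of complex subunits and of methylation enzymes that the symbol rule leaves out, held 50 genes, of which 47 were tested. In edgeR 4 passed as lower and 0 as higher (0 higher at an unadjusted p under 0.05 and 0 higher in DESeq2). The 4 are 8.51% of the 47, beside 4.02% of all genes. The log2 fold change was below 0 in 36 (76.6%, beside 48.9% of all genes), with a median of -0.19. DESeq2 called 6, all lower, or 12.8%, which is under the 14.3% of all genes. The 4 are named after their values were seen. PHF19, a PRC2 accessory subunit that binds methylated H3K36, had 76.2 and 138 CPM in DMSO and 24.9, 19.0 and 19.6 in doxorubicin, a log2 fold change of -2.34 (edgeR adjusted p = 0.0037). RBBP7, a histone chaperone of PRC2 and of other complexes, had 172 and 196 CPM in DMSO and 93.3, 87.0 and 84.5 in doxorubicin (log2 fold change -1.06, edgeR adjusted p = 0.00581). WHSC1, now NSD2, the main H3K36 dimethyltransferase besides NSD1, had 234 and 314 CPM in DMSO and 94.5, 84.1 and 77.9 in doxorubicin, with a log2 fold change of -1.68 (edgeR adjusted p = 0.00285). PAXIP1, a subunit of the KMT2C and KMT2D complexes, had a log2 fold change of -1.18 (edgeR adjusted p = 0.00893). The groups did not overlap in any of these 4 genes, which were picked by a test between the same groups. Of all genes, 47.7% had no overlap. Without DMSO replicate 1, PHF19 and WHSC1 passed (edgeR adjusted p = 0.00675 and 0.00763), and with any other library left out 0 of the 4 did.

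By list, 2 of 8 PRC2 accessory subunits passed the edgeR test. Of the 11 subunits of the COMPASS complexes, which serve the SETD1 and KMT2 enzymes, all 11 were below 0 and 1 passed, and their median log2 fold change was -0.19. Of 6 tested subunits of the LSD1 complex 5 were below 0 and 0 passed, in edgeR (1 at an unadjusted p under 0.05) as in DESeq2. Of 14 lysine methylation enzymes outside the symbol rule 10 were below 0 and 1 passed. Of 8 arginine methyltransferases 6 were below 0, with a median of -0.094, and 0 passed with either tool (1 at an unadjusted p under 0.05 in edgeR).

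The distance of the DMSO libraries limits what can be said of many of these genes. In 24 of the 56 genes the DMSO libraries were further apart than the fold change on the log2 scale, 10 of them writers and 8 erasers. The median distance was 0.32 for DMSO and 0.27 for the 0.2 µM libraries, beside 0.37 for DMSO over all genes tested. In 15 genes the DMSO libraries differed by over 1.5-fold, and 10 of these had the higher value in replicate 1. In all 10 the 0.2 µM library of replicate 1 was also above that of replicate 2. The others, SMYD2, SUV39H2, KDM8, SETD6 and SMYD5, were lower in replicate 1 than in replicate 2 in both pairs. Of these, KDM8, SETD6 and SMYD5 are named after their values were seen. The widest distances were those of KDM6B (1.84), PRDM1 (1.76), KMT2E (1.44) and KDM7A (1.26). Of the genes that passed the test, EZH2, PRDM8, SETD8 and KDM4B had distances of at most 0.21 and SUV39H1 one of 0.56.

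**Figure D3:**
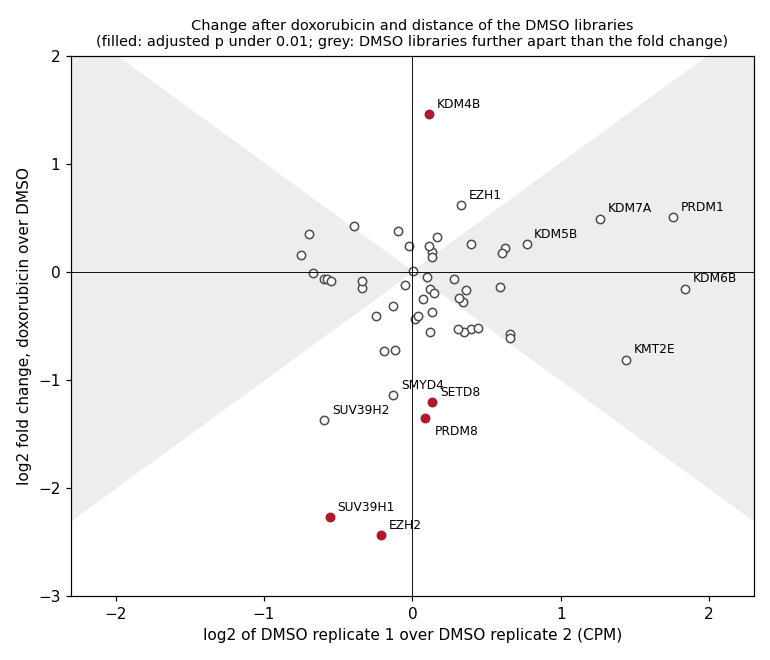
Log2 fold change after doxorubicin (y axis) against the log2 ratio of DMSO replicate 1 over replicate 2 (x axis) for the 56 tested genes. Grey marks the area where the DMSO libraries are further apart than the fold change. It holds 24 genes, with KDM6B at 1.84 farthest to the right, while the 5 filled points, with an adjusted p-value under 0.01, lie outside it.

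Between the concentrations, 0.34 µM against 0.2 µM, 0 of the 56 genes passed the edgeR test, as did 0 of all genes tested (0%), and 0 passed with DESeq2 or limma voom. At an unadjusted p under 0.05 edgeR found 22 genes in the whole table and 0 of the writers and erasers, as did DESeq2 and limma voom for the latter. The 0.34 µM library has no replicate, and its spread is taken from the DMSO and 0.2 µM pairs. Those pairs stood apart, with a chi-square of 117 and 75.3 per degree of freedom. The 0.34 µM library lay closer to replicate 1 of 0.2 µM (9.01) than to replicate 2 (74.1). In this contrast, a difference of concentration and one between the replicates cannot be told apart. Few genes of the whole table reached even an unadjusted p under 0.05, so a count of 0 says little about the writers and erasers. The smallest unadjusted p in this edgeR contrast was that of EZH2 (0.221), with a log2 difference of -0.45 (95% interval -1.24 to 0.34). For SUV39H1 it was -0.30 (95% interval -1.27 to 0.66) and for SUV39H2 -0.51 (95% interval -1.52 to 0.49). PRDM8 had a difference of -0.13 (95% interval -0.76 to 0.50), SETD8 one of 0.024 (95% interval -0.59 to 0.64) and KDM4B one of 0.32 (95% interval -0.33 to 0.97). Over the 56 genes the differences ranged from -0.70 for KDM4D to 0.54 for KDM6B. These intervals include 0 and do not show that the concentrations act alike.

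**Figure D4:**
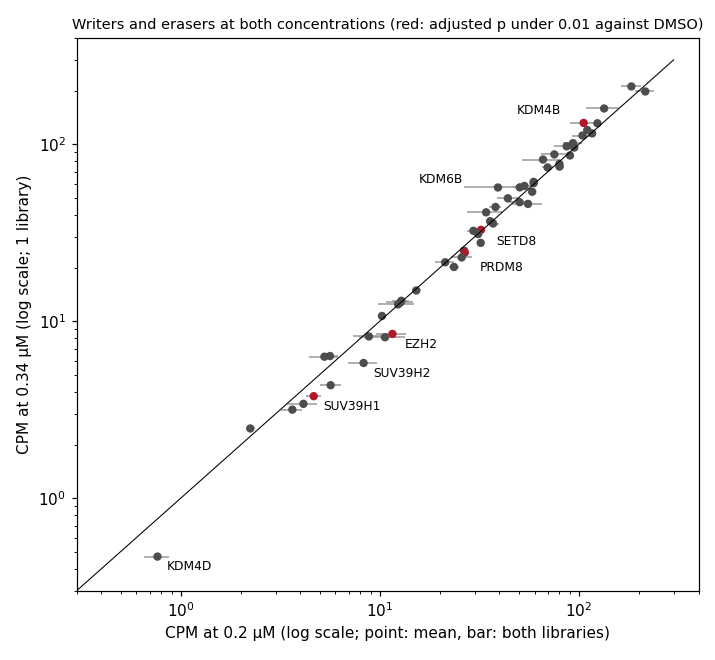
CPM at 0.34 µM (1 library, y axis) against the mean of the 2 libraries at 0.2 µM (x axis), both on log scales, for the 56 tested genes. Horizontal bars join the 0.2 µM libraries and the line marks equal levels. The points lie along the line, and KDM4D, at about 1 CPM or less, is the farthest below it.

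To compare levels between genes, CPM were divided by the length of 1 transcript per gene in kilobases. In DMSO the levels spanned 0.317 for PRDM1 to 47.0 for KDM1A, with a median of 7.60 CPM per kilobase. KDM1A was followed by SETD7 at 28.1, SETD8 at 26.96, KDM5C, an H3K4 demethylase named after its values were seen, at 25.7, KMT2E at 24.2, EZH2 at 21.5 and PRDM8 at 21.2. Neighbours in this order were not tested against each other, and the DMSO libraries of KMT2E alone, at 275 and 101 CPM, lay further apart than several of these steps. In doxorubicin KDM1A remained the highest at 37.7 CPM per kilobase. EZH2 moved from rank 6 to rank 39 of the 56 with 3.98, SUV39H1 from 26 to 50 with 1.60, and SETD8 from 3 to 16 with 11.7. KDM4B moved from rank 31 to rank 4 with 20.5, and EZH1 from 39 to 23 with 8.68. The ranks are a description, without a test, and use the same libraries as the fold changes.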

How the data were processed

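For 5 libraries, the authors deposited unnormalized read counts. Paired-end reads of poly-A RNA had been mapped to hg38 by STAR and assigned to genes by featureCounts of Rsubread. Strand setting and versions: not given in the sources used here. A second table holds the authors' own comparison (mean normalized count, log2 fold change, statistic and p-values) and was not used.

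In R 4.3.3, edgeR 4.0.16 normalized the counts by TMM and removed low genes with filterByExpr (count of at least 10, total of at least 15). The quasi-likelihood test compared the 3 doxorubicin libraries with the 2 DMSO libraries over 14187 genes, with Benjamini-Hochberg adjustment and a threshold of 0.01. The concentrations were compared as a contrast in a fit of 3 conditions. Alternatives were DESeq2 1.42.0, limma 3.58.1 (voom), another normalization, no filter and a threshold of 0.05. Further ones were the 0.2 µM libraries alone and each library left out. Another was a replicate block, fitted on the DMSO and 0.2 µM libraries only. The edgeR test was checked on counts simulated from the means and sizes of these libraries, and those values are not quoted. The replicates are biological, per the study's methods.

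The genes, roles and lists were chosen with earlier results of these data known. Genes are named if called, if among the 5 highest or 5 lowest log2 fold changes, or if on a list of examples, and others are marked as named after their values were seen. Of the genes this rule names, 1 is not reported here. Positions and promoters are from RefSeq (GRCh38.p14), where 64 of the 65 genes matched by symbol and 1 by synonym, and 42 of the 65 overlap another gene. Transcript lengths are those of the MANE Select transcripts in GENCODE. Total counts were between 23773061 and 36725345, and limits from a count of 0 cover counting error only.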

Additional observations from a re-analysis of the deposited data

How the results depend on the processing

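Of 352 comparisons of 32 named genes with 11 alternatives, 312 kept their direction and their side of the threshold, 24 kept the direction and lost the call, 2 gained one (SUV39H2, with DESeq2 and with the replicate block) and 14 changed sign. All sign changes were in genes that had not passed the test. Limma voom, RLE size factors and no filter left 5 genes called, and DESeq2 and a threshold of 0.05 gave 7 each. In the contrast of 0.2 µM with DMSO from the fit of 3 conditions, 1 gene was called, EZH2, with 0 higher and 1 lower. With each library left out in turn, 0 to 2 genes were called, 0 to 1 higher and 0 to 1 lower, and the median log2 fold change was between -0.25 and -0.14. A group left with 1 library is then assumed to vary like the others. Over the whole table, 571 genes were called in the main comparison, 2026 with DESeq2 and 1020 without the filter. The 0.2 µM contrast of the fit of 3 conditions called 171, and the fits with a doxorubicin library left out called 178 to 207. The cause of these differences was not tested.

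Leaving out 1 library changed the sign of the log2 fold change in 9 of these 32 genes. The value ranged from -0.34 to 0.23 for EED, -0.25 to 0.080 for EHMT2, -0.071 to 0.56 for KDM3A, -0.091 to 0.69 for KDM5B, -0.81 to 1.04 for KDM6B, -0.020 to 1.25 for KDM7A, -0.11 to 0.00033 for NSD1, -0.13 to 1.63 for PRDM1 and -0.35 to 0.24 for SMYD2. The extreme beyond 0 came without DMSO replicate 2, except for KDM6B (without DMSO replicate 1, and 0.11 without replicate 2 of 0.2 µM) and NSD1 (without replicate 2 of 0.2 µM). SMYD2 was also above 0 without the 0.34 µM library (0.0019) and in the 0.2 µM contrast of the fit of 3 conditions (0.00073). KDM6B was above 0 with limma voom (0.055).

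The labels number the replicates but give no shared batch, and there are 2 pairs. The deviations of same-numbered DMSO and 0.2 µM libraries correlated at 0.528 over genes. The fit with the replicate number as a block used the DMSO and 0.2 µM libraries only. It called 7 genes, 1 higher and 6 lower, with SUV39H2 and SMYD4 added (edgeR adjusted p = 0.00465 and 0.00883). In the whole table it called 1249, and SMYD2 turned to 0.032. The same libraries without the block gave 1 called gene, EZH2, and 178 in the whole table.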
